A study of Mus musculus with 6 samples.

Results

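Proximal T cell receptor signalling genes are represented here by 9 genes, the kinases, adaptors, effector enzyme and phosphatase that act next to the receptor: Lck, Fyn, Zap70, Lat, Lcp2, Themis, Skap1, Plcg1 and Ptpn22. They were chosen by symbol, and each of the 9 was found among the 55401 gene IDs of the count table. Each of the 6 RNA libraries, 3 in each of 2 groups, came from 2000 mouse marrow cells sorted in bulk. The LSK group was sorted as Lin-Sca-1+c-Kit+, the marrow fraction that holds stem and multipotent progenitor cells, from untreated wild type C57BL/6 mice of 6 to 8 weeks. The ESC-derived group was sorted as Lin-Sca-1+c-Kit- from the marrow of primary recipients of CD144+ cells made by differentiating embryonic stem cells, also labelled wild type. The strain, age and conditioning of the recipients, the number of animals behind a library and any marker separating donor from host cells are not stated in the labels. Nothing says whether the 3 libraries of a group come from separate animals, so p-values measure the spread between libraries, which may be technical.

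When a T cell receptor binds its ligand, the Src family kinases Lck and Fyn phosphorylate the tails of the CD3 chains, and Zap70 docks there and is activated. Zap70 then phosphorylates the membrane scaffold Lat and the cytosolic adaptor Lcp2, which together bring in phospholipase C gamma, the product of Plcg1, and so open the calcium, protein kinase C and Ras branches. Themis tunes the signal in developing T cells, Skap1 links it to integrin adhesion, and the phosphatase Ptpn22 turns it down by acting on Lck and Zap70. Several of these proteins also work outside T cells: Lat and Lcp2 in platelets and mast cells, Fyn in many tissues, Plcg1 in nearly all of them.

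Total estimated counts per library ran from 41580006 to 49269286. The 12 T cell marker genes set out for this comparison, among them the CD3 chains, Trac and Cd8a, summed to 83.5 to 104 CPM, counts scaled to a common library total, in the LSK libraries and to 11725 to 12839 CPM in the ESC-derived libraries, and 12 of 12 rose. Which antibodies made up the Lin gate is not stated, and were CD3 or CD8 among its targets, these transcripts would run against the label. The 9 stem and progenitor markers, Kit, Cd34 and Flt3 among them, summed to 1902 to 1966 CPM in LSK and to 0.428 to 8.17 CPM in ESC-derived libraries. LSK replicate 2 stood apart: it lay between the other LSK libraries in 62.0% of tested genes, against 18.4% and 18.0% for LSK replicates 1 and 3 and 28.0 to 34.8% in the ESC-derived group. Counts of called genes among the 9 genes and the pathway lists are also given without it, and counts of markers are not.

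The stretches before the annotated starts of Lck, before the first of the annotated starts of Zap70 and before that of Plcg1 are shown. These genes were taken because they mark the range of the results. Lck had the highest level in ESC-derived libraries, Zap70 the largest rise, and Plcg1 no detectable change. Lck is known to be transcribed from a distal promoter, used in mature T cells, and a proximal one, used mainly in thymocytes, and the annotated starts of the pair lie 15269 bases apart. Counts per gene do not separate transcripts from these promoters. Each line gives the 250 bases before a start, 5′ to 3′ on the gene's strand, from RefSeq (GRCm38.p6), with matches to short motifs on either strand in capitals: TGTGGT (RUNX factors), GGAAG (ETS factors), CTTTGA (TCF factors) and CANNTG (E-box).
Lck distal start, chr4:129573642-129573891, minus strand: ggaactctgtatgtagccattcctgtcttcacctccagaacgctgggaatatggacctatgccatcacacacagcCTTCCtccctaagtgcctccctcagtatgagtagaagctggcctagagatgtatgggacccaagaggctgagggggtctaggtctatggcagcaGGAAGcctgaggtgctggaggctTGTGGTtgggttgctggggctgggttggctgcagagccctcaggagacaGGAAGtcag
Lck proximal start, chr4:129558373-129558622, minus strand: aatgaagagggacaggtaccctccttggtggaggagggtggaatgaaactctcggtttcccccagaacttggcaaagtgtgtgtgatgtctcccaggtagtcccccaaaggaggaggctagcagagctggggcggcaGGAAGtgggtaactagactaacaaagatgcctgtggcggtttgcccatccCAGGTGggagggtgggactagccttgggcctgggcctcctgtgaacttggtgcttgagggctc
Zap70 first start, chr1:36761548-36761797, plus strand: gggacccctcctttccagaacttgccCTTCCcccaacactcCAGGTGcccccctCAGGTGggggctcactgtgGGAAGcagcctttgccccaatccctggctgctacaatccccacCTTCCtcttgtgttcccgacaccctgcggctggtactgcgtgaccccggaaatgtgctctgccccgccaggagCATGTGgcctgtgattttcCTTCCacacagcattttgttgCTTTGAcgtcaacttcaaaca
Plcg1 start, chr2:160731060-160731309, plus strand: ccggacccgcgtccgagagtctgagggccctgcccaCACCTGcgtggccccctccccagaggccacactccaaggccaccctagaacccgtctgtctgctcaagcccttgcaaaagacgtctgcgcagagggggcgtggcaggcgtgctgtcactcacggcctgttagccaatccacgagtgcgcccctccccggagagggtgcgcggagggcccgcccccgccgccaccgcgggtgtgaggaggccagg

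The distal Lck window held 1 RUNX letter match, 58 bases before the start, and 3 ETS matches, while the proximal window held 1 ETS match and 1 E-box. The first Zap70 window held 4 ETS matches, 3 E-boxes and 1 TCF match, 21 bases before the start. Zap70 windows 2 and 3 are not shown. Window 2 held 1 RUNX match, 75 bases before its start, 4 ETS matches and 1 E-box, and window 3 held 1 E-box. The Plcg1 window held 1 E-box and none of the other motifs, and its GC content was 71.2%, against 58.8% in the first Zap70 window. No match overlapped another. RefSeq windows were found for 8 of the 9 genes, 13 windows in all. Skap1 was not matched. Of the 13, 3 held the RUNX letters (23.1%), 8 the ETS letters (61.5%), 3 the TCF letters (23.1%) and 10 an E-box (76.9%). Over all 32851 RefSeq windows of the same length the shares were 14%, 64.1%, 13.8% and 66.2%. These matches are descriptions of letters, not binding sites.

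The design sets the ESC-derived fraction against adult marrow cells sorted by the LSK gate. Beside stem and progenitor markers, the LSK libraries held plasma cell markers summing to 15688 to 20573 CPM. Immunoglobulin genes took 7.54, 8.5 and 9.48% of the counts in LSK replicates 1 to 3. The groups differ at once in c-Kit gate, in labelled cell origin and in host, recipients against untreated mice. The parts of gate, origin and host in any difference cannot be told apart. Of the 9 genes, 7 were higher in the ESC-derived libraries (Zap70, Themis, Lck, Lat, Fyn, Ptpn22 and Lcp2), 0 were lower, and Skap1 and Plcg1 did not pass the threshold of 0.05 (Benjamini-Hochberg adjusted p over 16211 genes, two-sided quasi-likelihood test of edgeR). Of all genes tested, 14.8% were called higher, 15.2% lower and 30.0% in either direction. The median log2 fold change of the 9 genes was 3.07, against -0.07 over all genes tested. The same 7 of 9 passed without LSK replicate 2, with adjusted p from 0.000111 to 0.00189. For the 7 the groups did not overlap in any library, as was the case for 22.6% of genes tested with the ESC-derived values higher and for 27.2% with them lower. In bulk RNA, more cells of a type and more RNA per cell cannot be told apart.

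**Figure D1:**
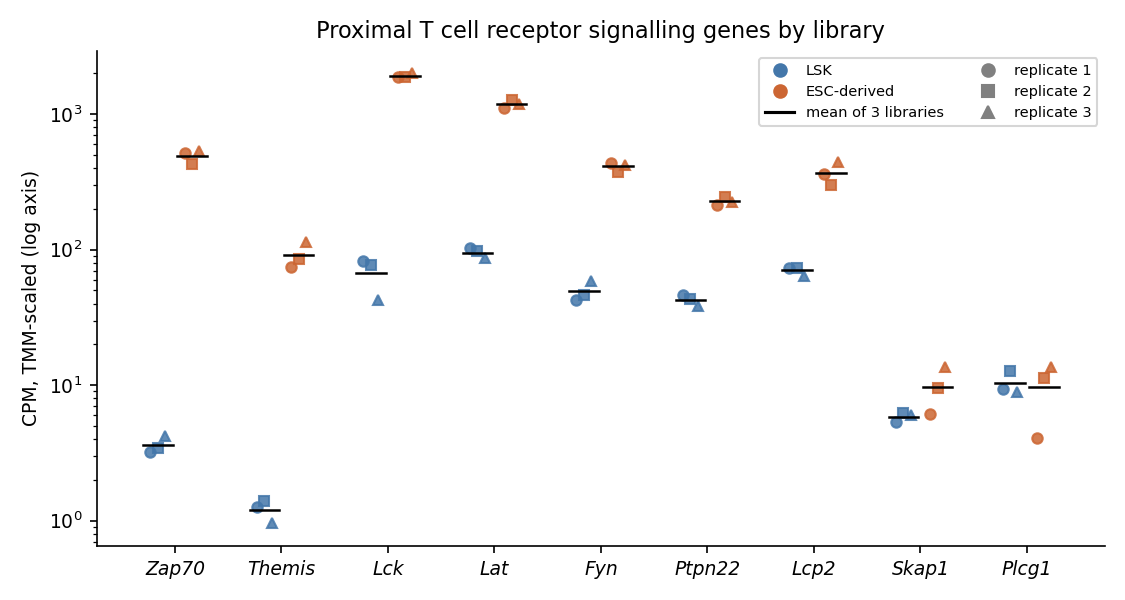
Level of each of the 9 genes in each library, in TMM-scaled CPM on a log axis, with LSK libraries in blue, ESC-derived libraries in orange, a symbol per replicate and a black line at the mean of 3 libraries. From Zap70 on the left to Lcp2, the orange points lie above all blue points, while the groups overlap for Skap1 and Plcg1.

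Among the kinases, Zap70 changed most. Zap70 (ENSMUSG00000026117, mm10 chromosome 1, 36761798 to 36782818, plus strand) encodes the kinase that binds phosphorylated CD3 tails. It measured 3.24, 3.44 and 4.18 CPM in LSK replicates 1 to 3 and 518, 430 and 536 CPM in ESC-derived replicates 1 to 3. The spread within each group was small beside the gap between them. The log2 fold change was 7.09 ± 0.18 (SE), 137-fold, with an edgeR adjusted p of 3.8e-06.

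Lck (ENSMUSG00000000409, chromosome 4, 129548344 to 129573641, minus strand), the kinase carried by the CD4 and CD8 coreceptors, measured 82.7, 77.1 and 42.8 CPM in LSK and 1873, 1896 and 2007 CPM in ESC-derived replicates 1 to 3. LSK replicate 3 was the lowest library, and the ESC-derived libraries lay close together. Lck rose by a log2 fold change of 4.83 ± 0.28 (SE; edgeR adjusted p = 6.67e-05), a 28.5-fold difference. Lck transcripts were thus also measured in each LSK library, at 67.5 ± 21.6 CPM (SD, n = 3 libraries) against 1925 ± 71.8 CPM in ESC-derived libraries.

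Fyn (ENSMUSG00000019843, chromosome 10, 39368855 to 39565381, plus strand), the other Src family kinase of the receptor, measured 42.6, 46.4 and 58.7 CPM in LSK and 436, 377 and 425 CPM in ESC-derived replicates 1 to 3. Its rise was the smallest of the 3 kinases, with a log2 fold change of 3.07 ± 0.16 (SE; edgeR adjusted p = 4.22e-05). The antisense gene Gm16365 overlaps Fyn, with 4 counts over the LSK and 132 over the ESC-derived libraries, few beside the 6883 and 54420 of Fyn. Within each library, the log2 ratio of Lck to Fyn, taken per kilobase of annotated exon, was 1.53, 1.31 and 0.12 in LSK and 2.68, 2.90 and 2.82 in ESC-derived replicates 1 to 3. LSK and ESC-derived values did not overlap, so Lck gained on Fyn in each ESC-derived library, by a mean of 1.81 on the log2 scale (exact two-sided permutation test, p = 0.1, the smallest that 3 against 3 libraries allow).

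The scaffold and adaptor genes divided into genes already measurable in LSK libraries and one near the limit. Lat (ENSMUSG00000030742, chromosome 7, 126363824 to 126369570, minus strand), the scaffold phosphorylated by Zap70, measured 102, 97.1 and 86.2 CPM in LSK and 1103, 1272 and 1191 CPM in ESC-derived replicates 1 to 3. Its log2 fold change was 3.64 ± 0.12 (SE; edgeR adjusted p = 7.45e-06), and no other of the 9 genes was fitted with a smaller standard error. Lcp2 (ENSMUSG00000002699, chromosome 11, 34046920 to 34092295, plus strand), the adaptor that joins Lat to its effectors, measured 72.8, 73.7 and 64.5 CPM in LSK and 364, 302 and 443 CPM in ESC-derived replicates 1 to 3. Lcp2 rose 5.26-fold, a log2 fold change of 2.40 ± 0.17 (SE; edgeR adjusted p = 0.000147).

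Themis (ENSMUSG00000049109, chromosome 10, 28668360 to 28883818, plus strand), an adaptor known for its part in thymocyte selection, stood at 1.26, 1.40 and 0.958 CPM in LSK and 74.1, 84.9 and 114 CPM in ESC-derived replicates 1 to 3. The LSK values rest on 61, 64 and 44 estimated counts, and the ESC-derived values on 3116, 3593 and 5393. ESC-derived replicate 3 was the highest library, and the groups lay far apart. The log2 fold change was 6.23 ± 0.29 (SE; edgeR adjusted p = 2.78e-05), 75.3-fold and next in size to that of Zap70.

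Skap1 (ENSMUSG00000057058, chromosome 11, 96464593 to 96759130, plus strand), an adaptor of integrin adhesion, was low in both groups. It measured 5.34, 6.22 and 6.01 CPM in LSK and 6.11, 9.49 and 13.7 CPM in ESC-derived replicates 1 to 3, so that ESC-derived replicate 1 lay inside the LSK range. The log2 fold change of 0.74 ± 0.41 (SE) did not pass (edgeR adjusted p = 0.234, range over 18 alternatives 0.0944 to 0.993), with a 95% interval from -0.23 to 1.71. A rise above 1.71 on the log2 scale lies outside this interval, which rests on 3 libraries per group and is not a strict bound.

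Plcg1 (ENSMUSG00000016933, chromosome 2, 160731300 to 160775760, plus strand), the phospholipase recruited by Lat and Lcp2, was the only other gene that did not pass. It measured 9.40, 12.7 and 8.93 CPM in LSK and 4.07, 11.2 and 13.6 CPM in ESC-derived replicates 1 to 3. The ESC-derived libraries fell on both sides of the LSK range, and replicate 1 was the lowest of the 6. The log2 fold change was -0.10 ± 0.49 (SE; edgeR adjusted p = 0.904, range over 18 alternatives 0.578 to 1), with a 95% interval from -1.26 to 1.06, and it turned to 0.27 without ESC-derived replicate 1 and to 0.05 without LSK replicate 2. The kit does not mark strand, and Plcg1 overlaps Zhx3 on the other strand, which had 391 counts over the LSK and 1020 over the ESC-derived libraries, and the antisense gene Gm27206, with 66 and 0 counts. Reads from the shared stretches cannot be told apart.

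Ptpn22 (ENSMUSG00000027843, chromosome 3, 103859795 to 103912247, plus strand), the phosphatase that limits Lck and Zap70 activity, rose too. It measured 46.3, 42.9 and 38.7 CPM in LSK and 214, 244 and 224 CPM in ESC-derived replicates 1 to 3, a log2 fold change of 2.41 ± 0.13 (SE; edgeR adjusted p = 4.19e-05). Its 5.33-fold difference was close to that of Lcp2 and under that of either of its main targets. The genes within its introns on the same strand, Gm15472 (132 and 962 counts over the LSK and ESC-derived libraries) and Gm43065 (4 and 86), cannot be told apart from its unspliced RNA. The 95% intervals of the log2 fold changes, 2.11 to 2.72 for Ptpn22, 4.17 to 5.49 for Lck and 6.66 to 7.53 for Zap70, did not overlap.

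Set on a common scale per kilobase of annotated exon, the order of the genes also differed between the groups. In ESC-derived libraries Lck led with 657 ± 24.5 CPM per kilobase (SD, n = 3 libraries), followed by Lat with 430 ± 30.6, Zap70 with 165 ± 18.9, Fyn with 94.6 ± 7.18, Lcp2 with 83.0 ± 15.9, Ptpn22 with 33.6 ± 2.29, Themis with 7.79 ± 1.76, Skap1 with 1.31 ± 0.508 and Plcg1 with 1.23 ± 0.633 CPM per kilobase. The values of Fyn and Lcp2 overlapped, as did those of Skap1 and Plcg1, while every other pair of neighbours was separate in the 3 libraries. In LSK libraries Lat led with 34.4 ± 2.95 CPM per kilobase, followed by Lck with 23.1 ± 7.37, Lcp2 with 15.8 ± 1.14, Fyn with 11.3 ± 1.92, Ptpn22 with 6.30 ± 0.567, Plcg1 with 1.31 ± 0.258, Zap70 with 1.21 ± 0.166, Skap1 with 0.785 ± 0.0613 and Themis with 0.103 ± 0.0193 CPM per kilobase. Here Lck overlapped Lcp2, and Plcg1 overlapped Zap70. Zap70 thus moved from the seventh place to the third.

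The LSK libraries held a low level of T cell marker transcripts, so the 9 genes were also set against the CD3 chains of the same library, as the log2 ratio of a gene's counts to the summed counts of Cd3d, Cd3e, Cd3g and Cd247. For Zap70 this ratio was -2.67, -3.20 and -3.17 in LSK and -3.22, -3.56 and -3.13 in ESC-derived replicates 1 to 3. Here the groups overlapped, and their means differed by -0.29. Themis came next, with -4.61 ± 0.64 (SD, n = 3 libraries) in LSK and -5.77 ± 0.35 in ESC-derived libraries. Its groups did not overlap, and each LSK library lay above every ESC-derived library.

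Like Themis, the other 7 genes had a higher ratio to CD3 in each LSK library than in any ESC-derived library. The mean log2 difference, ESC-derived minus LSK, was -2.50 for Lck, -3.74 for Lat, -4.31 for Fyn, -4.97 for Ptpn22, -5.01 for Lcp2, -6.72 for Skap1 and -7.65 for Plcg1. Lck varied most within the LSK group, at 2.0, 1.28 and 0.19 in replicates 1 to 3, and the ESC-derived replicates gave -1.37, -1.42 and -1.23. Because the CD3 sum is shared, the differences follow the order of the log2 fold changes given above and are not a separate result. These ratios describe the libraries, and which LSK cells carried the transcripts was not tested.

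**Figure D2:**
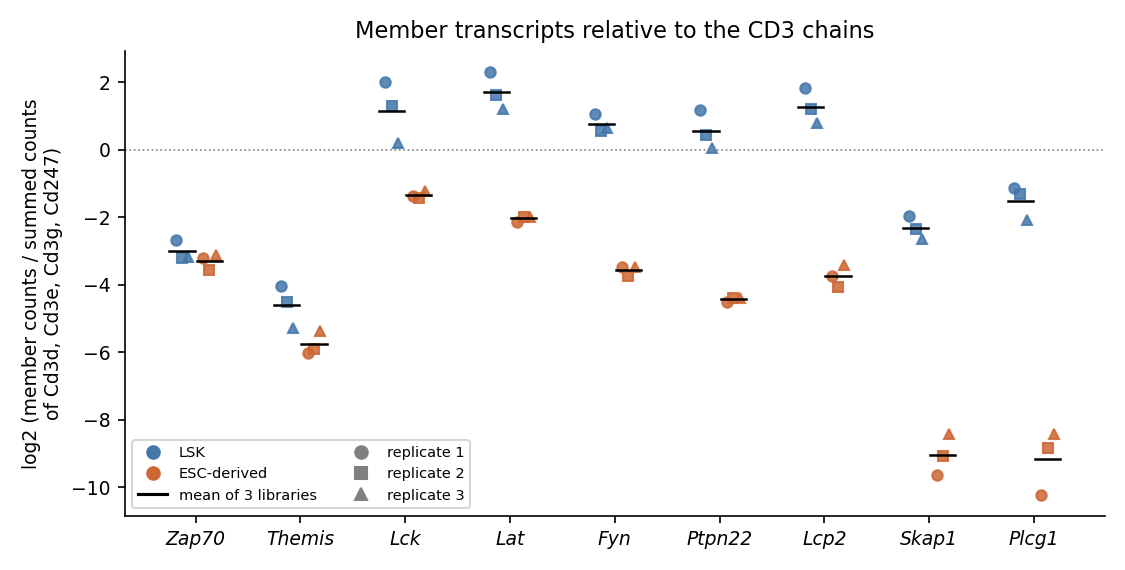
Log2 ratio of each gene's counts to the summed counts of the 4 CD3 chain genes in the same library, with LSK libraries in blue, ESC-derived libraries in orange, a symbol per replicate and a black line at the mean of 3 libraries. The groups overlap for Zap70, lie near each other for Themis, and are farthest apart for Plcg1, whose mean fell from -1.51 in LSK to -9.16 in ESC-derived libraries.

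Other genes of the pathway were read from the same fit, by lists drawn up with earlier results of these data known. Of 11 receptor complex and coreceptor genes, 11 rose and 0 fell, with a median log2 fold change of 6.48. Cd3e, a signalling chain of the receptor complex, had a mean of 2.61 ± 0.404 CPM (SD, n = 3 libraries) in the LSK group and of 234 ± 24.95 CPM in the other. The coreceptor chains Cd8a, with a log2 fold change of 8.87, and Cd8b1, with 9.34, rose more than any of the 9 signalling genes. The count was 11 without LSK replicate 2 as well.

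Of 15 partner kinases and adaptors, 11 rose and 1 fell (median log2 fold change 2.34, and 9 and 1 without LSK replicate 2). Sh2d2a, an adaptor that binds Lck, measured 13.5, 12.04 and 9.56 CPM in LSK and 960, 988 and 1090 CPM in ESC-derived replicates 1 to 3, a log2 fold change of 6.43 ± 0.18 (SE; edgeR adjusted p = 4.54e-06). Grap2, which couples Lcp2 to Lat, rose by 4.93 ± 0.15, and Txk, a Tec family kinase of T cells, by 5.69 ± 0.23 on the log2 scale. Vav3 was the gene that fell, from 65.1 ± 14.1 to 17.1 ± 4.83 CPM (log2 fold change -1.93 ± 0.29).

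Of 17 proximal inhibitors, 10 rose and 1 fell, with a median log2 fold change of 0.67, and 6 and 0 did so without LSK replicate 2. Sit1, a transmembrane adaptor that dampens receptor signals, rose from 2.27 ± 0.690 to 173 ± 19.6 CPM, a log2 fold change of 6.25 ± 0.29. Dgka, a kinase that removes the diacylglycerol made by phospholipase C, rose by 2.90 ± 0.19, and Sla, an adaptor that promotes receptor turnover, by 2.02 ± 0.16 on the log2 scale. Ptpn11, a phosphatase with both positive and negative roles, fell from 69.1 ± 6.78 to 40.1 ± 7.93 CPM (log2 fold change -0.79 ± 0.19). Its edgeR adjusted p of 0.0226 ran from 0.000822 to 1 over 18 alternatives. Leaving out LSK replicate 1, 2 or 3 or ESC-derived replicate 1 ended that call, at adjusted p of 0.0724, 0.061, 0.0577 and 0.051, and left 0 falls in the list.

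Of 18 downstream calcium, protein kinase C and Ras genes, 9 rose and 0 fell (median log2 fold change 0.85, and 7 and 0 without LSK replicate 2). Rasgrp1, which activates Ras on binding diacylglycerol, rose most, from 3.53 ± 0.261 to 136 ± 12.5 CPM (log2 fold change 5.27 ± 0.17). Prkcq, the protein kinase C of the T cell synapse, rose by 2.21 ± 0.19 on the log2 scale. Some genes that act before Plcg1 (Lat, Lcp2) and after it (Rasgrp1, Prkcq) rose, while Plcg1 itself did not pass. Of the 18 downstream genes, 9 did not pass either.

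**Figure D3:**
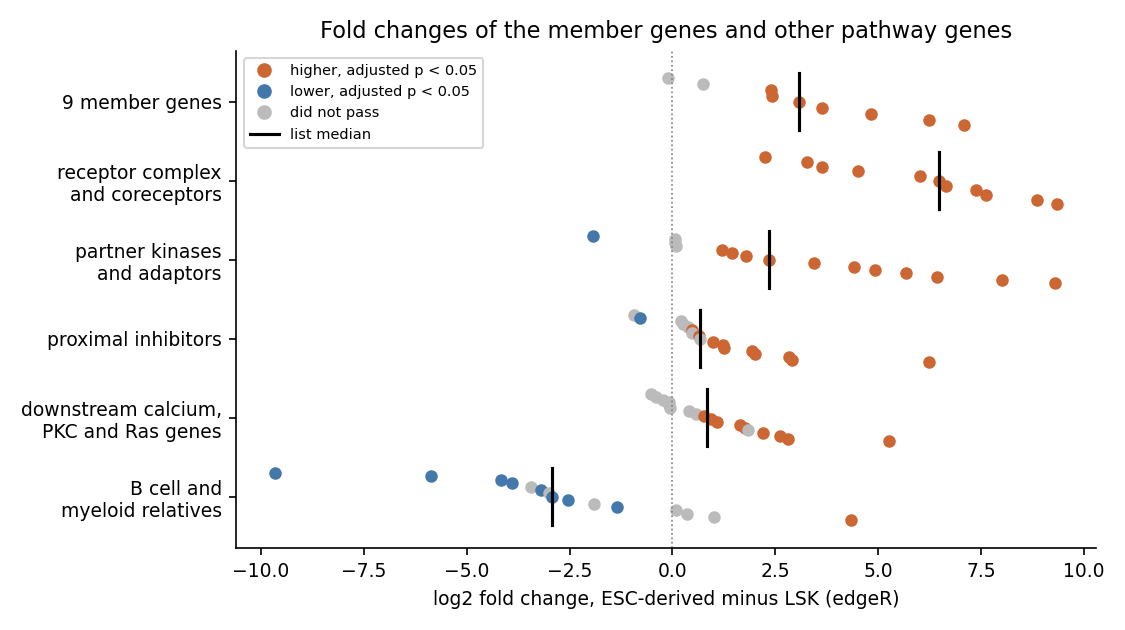
Log2 fold change, ESC-derived minus LSK, of each tested gene in the 9-gene set and the 5 other pathway lists, with genes called higher in orange, genes called lower in blue, genes that did not pass in grey and a black line at the list median. The medians run from 6.48 for the receptor complex through 3.07 for the 9 genes to -2.92 for the B cell and myeloid relatives.

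Genes in the list of B cell and myeloid relatives fell more often than they rose. The list was not limited to genes of B cell and myeloid receptors, as it also held Yes1, Src and Ptpn12, and Yes1 was among the falls. Of 15 tested out of 16 listed, 8 fell and 1 rose, with a median log2 fold change of -2.92, and 6 fell and 1 rose without LSK replicate 2. Plcg2, the phospholipase C gamma of B and myeloid cells, measured 105, 121 and 135 CPM in LSK and 5.11, 5.69 and 9.38 CPM in ESC-derived replicates 1 to 3, a log2 fold change of -4.16 ± 0.29 (SE; edgeR adjusted p = 0.00015). Skap2 fell by 2.53 ± 0.22 and Lat2 by 2.92 ± 0.27 on the log2 scale. The rise was that of Fgr, a Src family kinase of myeloid and NK cells, from 1.02 ± 0.215 to 20.7 ± 2.01 CPM (log2 fold change 4.34 ± 0.35). Beside these falls, 5 of 8 B cell markers fell and 0 rose, and the list summed to 571 to 592 CPM in LSK and 7.42 to 15.1 CPM in ESC-derived libraries, with Igll1 at 0 in the latter. Of 7 plasma cell markers 6 fell and 0 rose, with sums of 15688 to 20573 and 247 to 305 CPM. The part of B lineage cells in the falls was not tested.

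For 6 of the 9 genes a relative was paired with it after the values were seen, and the log2 ratio of the pair per kilobase of exon is given as a description. Zap70 to Syk, the relative that serves the B cell receptor, went from -1.86 ± 0.17 in LSK to 9.33 ± 1.16 in ESC-derived libraries (SD, n = 3 libraries), and Syk fell by 3.89 ± 0.51 on the log2 scale (edgeR adjusted p = 0.00203). Themis to Themis2, a relative of B and myeloid cells, went from -6.31 ± 0.50 to 1.27 ± 0.61. Themis2 fell by 1.34 ± 0.30 (edgeR adjusted p = 0.0162, range over 18 alternatives 0.000129 to 0.231), a call lost without LSK replicate 2 or 3. For these pairs the more abundant partner differed between the groups in each library.

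Lck to Lyn, a Src family kinase of B and myeloid cells, went from 1.12 ± 0.50 to 10.10 ± 2.89, with Lyn at 41.5, 42.6 and 40.7 CPM in LSK and 6.23, 9.14 and 0.253 CPM in ESC-derived replicates 1 to 3. ESC-derived replicate 3 was far below the others, and the Lyn log2 fold change of -3.00 ± 1.01 did not pass (edgeR adjusted p = 0.0666, range over 18 alternatives 0.00162 to 0.161). Without that library Lyn passed, at -2.43 (edgeR adjusted p = 0.00247). Lat to Lat2 went from 0.96 ± 0.14 to 7.55 ± 0.39.

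The ratios to relatives also differed for the genes that did not pass, beside log2 fold changes of -4.16 for Plcg2 and -2.53 for Skap2. Such a ratio moves even when only the relative changes. Plcg1 to Plcg2 was -4.35, -4.12 and -4.79 in LSK and -1.20, 0.11 and -0.33 in ESC-derived replicates 1 to 3. Skap1 to Skap2 was -3.98, -3.67 and -3.94 in LSK and -1.42, -0.86 and 0.35 in ESC-derived replicates 1 to 3. LSK and ESC-derived values did not overlap in any of the 6 ratios, but the pairs were chosen with the values known, so this is no test.

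**Figure D4:**
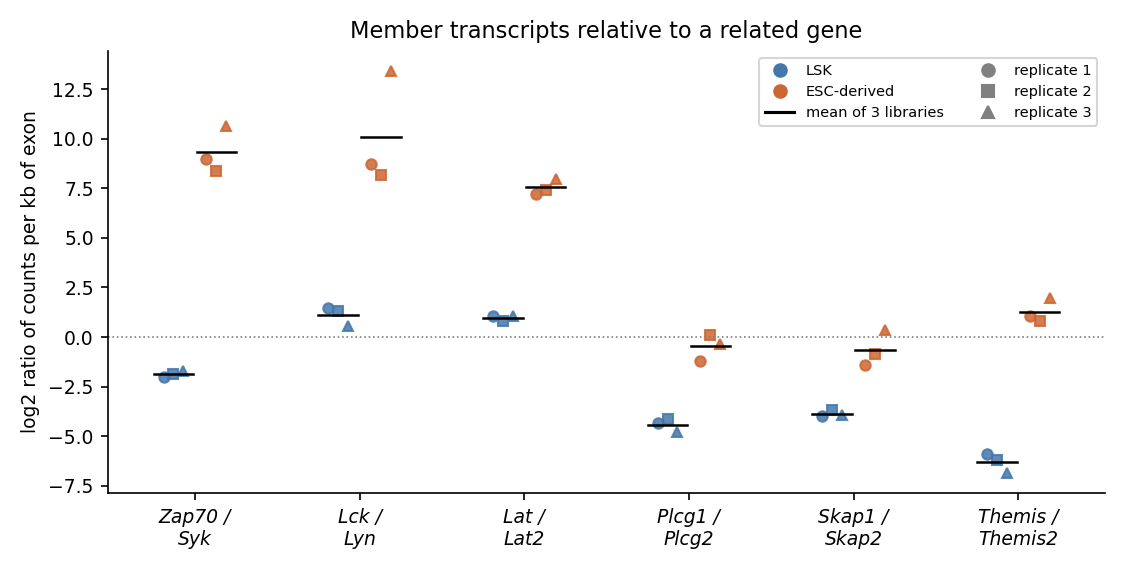
Log2 ratio of counts per kilobase of annotated exon between 6 of the 9 genes and a related gene in each library, with LSK libraries in blue, ESC-derived libraries in orange, a symbol per replicate and a black line at the mean of 3 libraries. Orange points lie above blue points for each pair, and the ratio crosses 0 between the groups for Zap70 to Syk and Themis to Themis2.

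The genes nearest to each of the 9 in pattern over the 6 libraries were taken from 12704 tested protein-coding genes by the root mean square difference of mean-centred log2 CPM. They were Ifng for Zap70, Ikzf3 for Lck, Dop1b for Fyn, Tasp1 for Lat, Commd10 for Lcp2, Sh2d2a for Themis, Gbp2 for Skap1, Pigo for Plcg1 and Btg1 for Ptpn22. The differences ran from 0.0785 for Skap1 to 0.205 for Themis. Ifng, the gene for interferon gamma, had means of 3.55 CPM in the LSK and 571 CPM in the ESC-derived group. Ikzf3, a lymphoid transcription factor, had means of 5.66 and 157 CPM, Tasp1 of 9.99 and 125 CPM, and Commd10 of 19.4 and 98.1 CPM. With 6 libraries in 2 groups, such nearness rests largely on a similar log2 fold change, such as 3.64 for Lat and for Tasp1. It does not show that the genes share a cell or a regulator.

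Some markers of other cells moved with the groups as well. NK cells carry Lck, Fyn, Zap70, Lat and Lcp2 too, and of 8 NK markers tested out of 10 listed, 5 rose and 2 fell. The genes that rose were Ncr1, from a mean of 2.32 to 20.3 CPM, Klrb1c, from 2.78 to 24.9 CPM, Klrc1, from 1.53 to 29.2 CPM, Eomes, from 0.906 to 34.0 CPM, and Klra7, from 0.258 to 40.9 CPM. Tyrobp and Fcer1g, which myeloid cells also express, fell from 120 to 44.1 and from 189 to 100.2 CPM and made up most of the LSK sum, so the sum of the list, 300 to 330 CPM in LSK and 273 to 309 CPM in ESC-derived libraries, does not show the rise of the other genes. Klra4 was at 0 in all 6 libraries, and Klra8 at 0 in the ESC-derived group. Of 5 markers of type 2 innate lymphoid cells tested out of 8, 2 rose and 0 fell. The risers were Klrg1, from a mean of 0.187 to 191 CPM, and Rora, from 15.4 to 99.8 CPM. The list summed to 13.5 to 25.2 CPM in LSK and 296 to 323 CPM in ESC-derived libraries, mostly from Klrg1 and Rora in the latter. Il1rl1, Il17rb, Areg and Il5 had ESC-derived means of 0.857, 0.732, 1.07 and 2.06 CPM, and Il9r of 10.7 CPM. Il5 was at 0 in LSK and Il13 at 0 in ESC-derived libraries. Of 8 neutrophil markers 5 rose (S100a8, S100a9, Camp, Ngp and Ltf) and 1 fell, Csf3r, from 48.0 to 0.804 CPM, with sums of 1101 to 1211 CPM in LSK and 2174 to 4287 CPM in ESC-derived libraries. Mpo, at means of 673 and 82.4 CPM, and Elane, at 100.4 and 56.7 CPM, did not pass. For these genes each ESC-derived library lay below every LSK library. ESC-derived replicate 3 was far below replicates 1 and 2, at 3.82 CPM for Mpo and 4.77 CPM for Elane. Of 6 eosinophil and basophil markers 1 rose and 2 fell, with sums of 84.0 to 215 and 57.6 to 1257 CPM and the highest in ESC-derived replicate 2. Of 7 monocyte and macrophage markers 1 rose and 1 fell, with sums of 719 to 778 CPM in LSK and 395 to 720 CPM in ESC-derived libraries. Of 4 erythroid markers tested out of 6, 0 rose and 0 fell, with sums of 154 to 172 and 79.0 to 582 CPM. A list name does not assign its transcripts to that cell. The ESC-derived libraries also held the T cell markers Cd8a and Cd8b1, at means of 1177 and 2128 CPM. Which cells carried the NK and innate lymphoid markers was not tested. The part of the cells named in these lists in the levels of the 9 genes was not tested either.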

How the data were processed

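The deposited table holds estimated counts per Ensembl gene ID for 6 mouse libraries, as whole numbers without normalization. Amplification used SMART-Seq v4 and library preparation Nextera XT, per the labels' protocols. Per the submitters' processing notes, HISAT, StringTie and mm10 were used, and no version, setting or annotation is given in the sources used here. Between 40.1 and 47.2% of values from 1 to 20 were divisible by 4, so a fragment was often worth about 4 counts and counts overstate depth. The header holds the 6 column names in a single field, and columns follow their order there. Symbols, positions and exon lengths come from GENCODE M21, which matched 55141 IDs. Each listed symbol matched a single ID.

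Genes passing filterByExpr (16211) were scaled by TMM, and the quasi-likelihood F test of edgeR 4.0.16 was run in R 4.3.3 (robust, no replicate block, both groups in 1 fit). SE is the log2 fold change over the root of F, and CPM uses TMM-scaled totals. The fit was checked on simulated counts. The alternatives were DESeq2 1.42.0, limma-voom (limma 3.58.1), RLE, upper quartile and total scaling, no filter, a floor of 50 counts in 3 libraries, thinning, testing beyond a 2-fold change, values divided by 4, no immunoglobulin genes, a replicate block, and each library left out. The 9 genes and all lists were chosen with earlier results of these data known. Named beyond the 9 were up to 3 higher and 3 lower called genes per list by adjusted p, and the nearest gene in pattern. A downstream gene under that rule is not reported here. Syk, Lyn, Themis2 and single marker genes were named, and relatives paired, after their values were seen.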

Additional observations from a re-analysis of the deposited data

How the results depend on the processing

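The log2 fold changes of Zap70, Themis, Lck, Lat, Fyn, Ptpn22 and Lcp2 kept direction and call under each of 18 alternatives, with adjusted p of 0.0028 or less (Lcp2). Skap1 passed under none, with log2 fold changes from 0.42 to 0.99. Plcg1 passed under none, with log2 fold changes from -0.43 to 0.27 when 1 library was left out. The Plcg1 value reversed to 0.05 without LSK replicate 2 and to 0.27 without ESC-derived replicate 1. The cause was not tested. Calls over all genes, 2395 higher and 2466 lower, were 971 and 1383 against a 2-fold change, 1732 and 1488 with the replicate block, 1756 and 3057 with library totals only, which moved the median gene by -0.25 on the log2 scale, and 1466 to 2163 and 1250 to 2440 with one library left out, the lowest without LSK replicate 2. Inhibitors numbered 5 higher and 0 lower against a 2-fold change, 0 lower with the replicate block, 2 lower with DESeq2 and with library totals, and 6 to 10 higher and 0 to 1 lower with one library left out. Downstream genes numbered 5 higher against a 2-fold change, and 1 lower with DESeq2 and with library totals. Relatives numbered 2 higher with DESeq2. The replicate numbers share only a label: deviations of same-numbered libraries correlated at 0.00426, 0.0537 and 0.00625, and not every library correlated best with its own number. With the replicate block, 7 of the 9 genes passed. Themis and Zap70 in LSK libraries rest on the fewest counts. Intervals cover spread between libraries, and whether that spread includes differences between animals is not stated.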
